A study of Mus musculus with 20 samples.

Results

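The late response of the mouse uterus to estradiol (E2) was compared with the early response: RNA from uteri collected 24 h after an E2 injection was set against RNA from uteri collected 2 h after the same injection. The comparison takes every E2 array of the series, which is 5 of its 20 arrays: 3 at 2 h (replicates 1, 2 and 3) and 2 at 24 h (replicates 2 and 3). All animals were adult female C57bl6/J mice of at least 10 weeks, ovariectomized and rested for 10 to 14 days, so the circulating ovarian hormones were removed before the injection. The E2 groups received 250 ng E2 subcutaneously in 100 µl sesame oil. Per the labels each uterus was homogenized on its own, and 500 ng of its RNA was labelled with Cy3 and hybridized alone, so an array stands for 1 animal and the p-values measure the spread between these animals. No vehicle array entered the comparison. Levels in the 3 vehicle uteri (100 µl sesame oil, named as 24 h samples by the labels) are given beside the E2 levels as background, with no test.

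E2 acts in the uterus mainly through estrogen receptor alpha, a ligand-activated transcription factor. The uterine response is usually described in phases. In the early phase, within hours, immediate early transcription factors and secreted signals are transcribed and water enters the tissue, and in the late phase, about a day after the dose, epithelial cells synthesize DNA and divide and the organ gains mass and secretory function.

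Levels are given as log2 of the processed signal relative to the 75th percentile of the same array, so 0 is the signal at the array's 75th percentile, and a level belongs to its own probe and is not set against that of another probe. Differences are log2 of 24 h minus 2 h with the standard error (SE) of limma's fit over the 5 arrays, and a difference was called when its Benjamini-Hochberg adjusted p over all probes tested was under 0.05. Of 41174 probes, 30872 were well above background throughout at least 1 of the groups and were tested. Arrays correlated at 0.9729 to 0.9906 within a time and at 0.938 to 0.9518 between times. The 24 h group holds 2 animals, so its spread is known from a single difference.

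Pancreas transcripts set some uteri apart. The summed level of 21 pancreas markers (signals relative to the array's 75th percentile, added on a linear scale) was 4676 in 2 h replicate 2, 240.8 in 2 h replicate 3, 6.433 and 17.58 in the 24 h replicates, and 0.7448 in 2 h replicate 1, against 0.8052 to 0.9642 in the vehicle uteri. All 21 were well above background in each E2 uterus except 2 h replicate 1, where 12 were. None of the 21 was called between the times (19 were called lower with spike-in centring, and 17 higher without 2 h replicates 2 and 3), their median difference was -3.18, and between 2 h replicate 1 and 24 h replicate 2, which share a slide, that median was 3.19. The source of this RNA was not tested. Counts of the lists by role are therefore given again without 2 h replicate 2. They are also given from a fit over all 7 groups of the series without both 2 h arrays of raised pancreas markers. In that fit only 2 h replicate 1 stands for its time, so the spread comes from the other groups. Both 24 h arrays, whose pancreas markers also lay above vehicle, stay in it. Testis transcripts of maturing sperm (8 markers tested) summed to 33.25 to 109.1 in the vehicle uteri and to 1.664 to 2.908 in the E2 uteri. The part of these markers in vehicle levels of other genes was not tested.

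About as many probes fell as rose from the early to the late phase. Of the 30872 probes, 15725 (50.9%) were called, 7357 (23.8%) higher and 8368 (27.1%) lower at 24 h, and the median difference of all probes was -0.06. At least 2-fold differences made up 6371 of the calls, 2881 higher and 3490 lower. On every called probe the levels of both groups did not overlap. In groups this small a call nearly requires such a separation, and its share among probes not called is not given. The separation is therefore a description and adds no support to the calls. The direction of the split rests on the scaling: 46.79% of the calls were higher with the 75th percentile, 49.7% after quantile normalization, 66.4% with no scaling, which moved the median of all probes to 0.187, and 55% after centring on the spike-in probes, with 1893 calls. Without 2 h replicate 2 the fit called 13901 probes, and the 7-group fit without both 2 h arrays of raised pancreas markers called 14969.

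Against the vehicle level, both directions held mostly probes that stood farther from vehicle at 24 h than at 2 h. Among probes lower at 24 h, the vehicle mean lay nearer the 2 h mean for 7099 and nearer the 24 h mean for 1269. Among probes higher at 24 h, it lay nearer the 2 h mean for 6376 and nearer the 24 h mean for 981. For 6721 called probes the vehicle mean lay between the 2 h and 24 h means. It lay above both for 5181 and below both for 3823. A probe that peaked at 2 h and then passed below vehicle can stand nearer either mean. These counts therefore do not give how often an early peak returned to the vehicle level. Some of the steepest falls, Fos and Nr4a1 among them, ended close to it.

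The genes were described in 21 lists by role and 3 lists of transcripts that the study itself had followed. Of their 531 genes tested, 421 (79.3%) were called, 286 (53.9%) higher and 135 (25.4%) lower, beside 50.9%, 23.8% and 27.1% of all probes. The lists were chosen for what E2 is known to change and with results of these arrays known, so that share is a description. Each list gene stands by its probe of highest mean, while all probes hold several probes of some genes, so the bases differ.

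**Figure D1:**
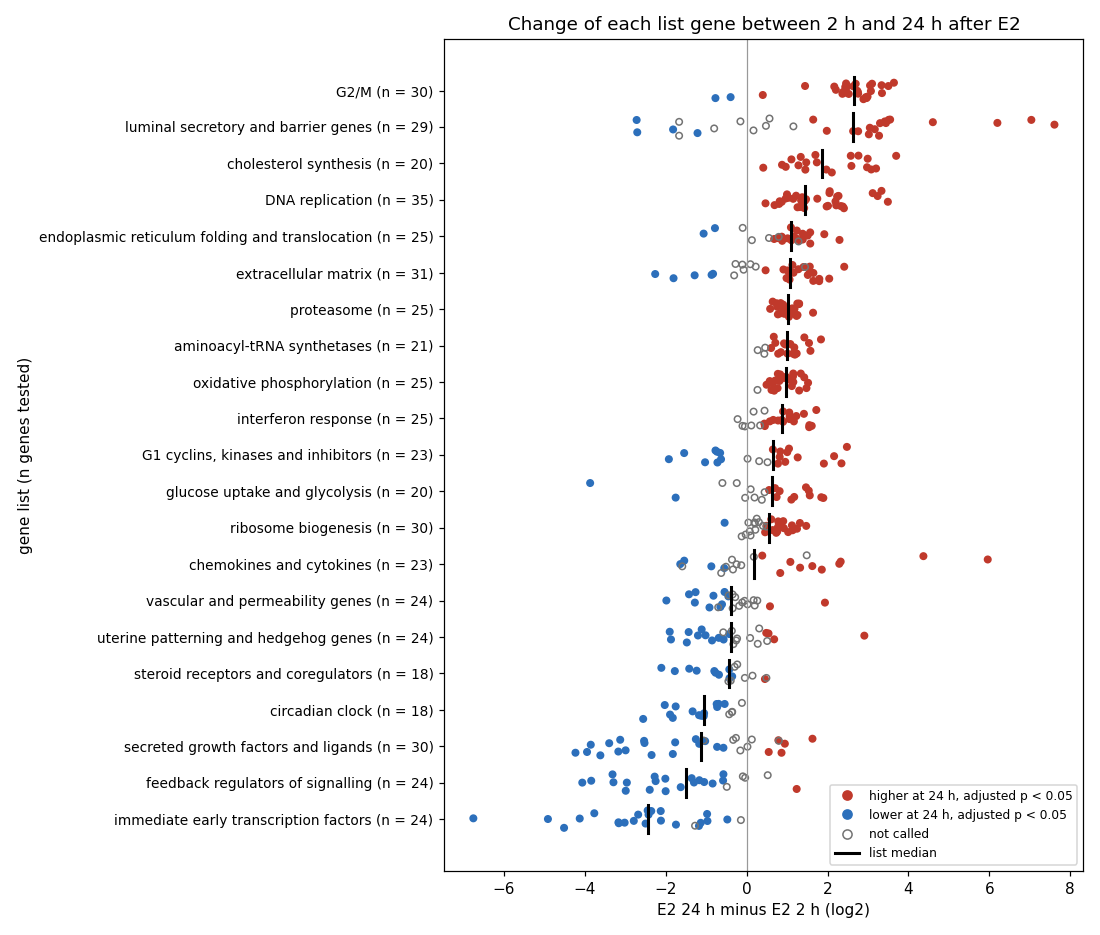
Difference between 24 h and 2 h of E2 (log2, horizontal axis) for every tested gene of each list (rows, with the number tested), one point a gene, filled where called, and a bar at the list's median. The DNA replication, cholesterol synthesis and proteasome lists lie wholly above 0 with medians of 1.44, 1.85 and 1.02, and the immediate early transcription factors lie wholly below 0 with a median of -2.44.

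Promoter sequences of genes from the ends of this range are shown because several lists share short motifs there. They are the 250 bases before the annotated start from RefSeq (GRCm38.p6), 5' to 3' on the gene's strand, in lower case with the named motif, on either strand, in capitals. Nr4a1 (chr15:101266596-101266845, + strand) and Fos (chr12:85473640-85473889, + strand) fell, and the capitals mark the cAMP response element core TGACG or its complement. Ccnb1 (chr13:100786487-100786736, - strand), Ccnb2 (chr9:70421555-70421804, - strand), Cdk1 (chr10:69352913-69353162, - strand) and Mvd (chr8:122443423-122443672, - strand) rose. Their capitals mark CCAAT boxes and, in Ccnb2 and Cdk1, TTTGAA, the letters of the cell cycle genes homology region. In Ccnb2 these letters stand 167 bases before the start, ahead of the CCAAT boxes at 87, 54 and 21. Sprr1a (chr3:92485882-92486131, - strand) rose, and the capitals mark AP-1 sites, TGACTCA.
Nr4a1: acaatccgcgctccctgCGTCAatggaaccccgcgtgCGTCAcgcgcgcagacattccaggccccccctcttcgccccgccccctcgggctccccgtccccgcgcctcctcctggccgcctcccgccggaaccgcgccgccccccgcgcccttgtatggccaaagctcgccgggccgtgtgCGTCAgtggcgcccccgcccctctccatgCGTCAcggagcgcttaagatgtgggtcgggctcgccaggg
Fos: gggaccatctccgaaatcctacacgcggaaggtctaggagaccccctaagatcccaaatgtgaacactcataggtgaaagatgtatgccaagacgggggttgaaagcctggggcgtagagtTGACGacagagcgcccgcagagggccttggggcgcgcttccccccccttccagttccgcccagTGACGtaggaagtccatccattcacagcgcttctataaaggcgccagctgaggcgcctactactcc
Ccnb1: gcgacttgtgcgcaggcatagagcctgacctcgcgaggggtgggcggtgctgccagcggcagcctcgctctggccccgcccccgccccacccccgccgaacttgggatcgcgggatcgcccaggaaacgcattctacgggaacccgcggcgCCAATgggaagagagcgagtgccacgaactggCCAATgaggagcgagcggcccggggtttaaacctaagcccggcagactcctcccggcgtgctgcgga
Ccnb2: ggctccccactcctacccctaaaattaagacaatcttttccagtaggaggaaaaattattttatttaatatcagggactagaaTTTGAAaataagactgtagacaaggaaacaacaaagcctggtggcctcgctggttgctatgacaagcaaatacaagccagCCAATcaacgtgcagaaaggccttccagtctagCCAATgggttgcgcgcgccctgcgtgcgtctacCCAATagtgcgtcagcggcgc
Cdk1: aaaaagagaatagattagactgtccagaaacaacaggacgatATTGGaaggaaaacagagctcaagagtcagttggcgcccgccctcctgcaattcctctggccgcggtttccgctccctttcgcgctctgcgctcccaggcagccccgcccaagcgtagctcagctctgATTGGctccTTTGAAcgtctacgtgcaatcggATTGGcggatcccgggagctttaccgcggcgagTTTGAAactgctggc
Mvd: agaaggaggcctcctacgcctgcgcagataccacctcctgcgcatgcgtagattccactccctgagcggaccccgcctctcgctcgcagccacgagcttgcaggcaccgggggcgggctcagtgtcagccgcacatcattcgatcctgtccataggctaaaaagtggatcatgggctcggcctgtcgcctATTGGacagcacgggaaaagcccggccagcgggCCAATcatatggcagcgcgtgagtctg
Sprr1a: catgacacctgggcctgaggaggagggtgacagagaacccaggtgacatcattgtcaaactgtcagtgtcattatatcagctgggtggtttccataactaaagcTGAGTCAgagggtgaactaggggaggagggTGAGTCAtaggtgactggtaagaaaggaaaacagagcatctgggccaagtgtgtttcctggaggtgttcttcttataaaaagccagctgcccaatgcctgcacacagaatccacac

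Across the lists, CCAAT stood in 13 of 15 promoters of cholesterol genes (86.7%), 19 of 24 of G2/M genes (79.2%) and 17 of 29 of DNA replication genes (58.6%), against 33.8% of all 32851 promoters and 5 of 17 of immediate early genes (29.4%). TGACG stood in 11 of 17 promoters of immediate early genes (64.7%), Fos, Fosb, Junb, Atf3, Cebpb, Nr4a1 and Nr4a2 among them, against 17.8% of all promoters, and also in 11 of 29 of DNA replication genes (37.9%). The AP-1 site stood in 6 of 21 promoters of luminal genes (28.6%), of which 5 belong to the Sprr cluster (Sprr1a, Sprr2b, Sprr2d, Sprr2e and Sprr2f), against 4.46% of all. TTTNNCGC, an E2F site, stood in 7 of 29 promoters of DNA replication genes (24.1%) against 4.28%, and TTTGAA in 7 of 24 of G2/M genes (29.2%) against 16.0%. AGGTCA, the repeated arm of an estrogen response element, stood in 7 of 21 promoters of luminal genes (33.3%), Ltf, C3 and Sprr2f among them, against 14.0%. The full cAMP response element TGACGTCA, which holds TGACG, the sterol response element TCACNCCAC and the serum response element core (CArG box) were found in at most 1 promoter of any list, against 1.55%, 1.05% and 1.47% of all. Every motif was searched on both strands, the members of a gene family share promoter sequence, and a match is a description of these letters. Only the 250 bases before the start were searched. Some list genes had no promoter in the set: of 24 immediate early genes tested, 17 had one. A motif not found here may stand farther away or in a gene left out.

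Immediate early transcription factors, which are transcribed within minutes of a stimulus without new protein synthesis, were high at 2 h and low at 24 h. Of 24 tested, 22 fell, none rose, and the median difference was -2.44. Egr3 (chr14:64726656-64726715, mm7), a zinc finger factor, stood at 1.02, 1.14 and 1.16 at 2 h and -5.87 and -5.42 at 24 h, a fall of 108-fold (-6.76 ± 0.16, adjusted p = 0.000468), and both late uteri lay below the vehicle range of -4.17 to -3.93. Egr4 of the same family read 1.09, 1.33 and 1.66 at 2 h and was not well above background in either 24 h uterus. Such a fold is given as a bound, the bright group's mean against the lowest signal that was well above background on the dim arrays, and Egr4 was at least 328-fold lower at 24 h (adjusted p = 0.000468).

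Fos, the AP-1 subunit, stood at 2.57, 2.84 and 2.96 at 2 h and at -2.19 and -2.06 at 24 h. That is a 30.1-fold fall (-4.91 ± 0.15, adjusted p = 0.000468) to just above the vehicle levels of -2.65, -2.62 and -2.48. Its partner Jun fell by 3.02, from 3.58, 3.59 and 3.62 to 0.54 and 0.62, and here the late levels lay under the vehicle range of 1.77 to 2.02. Egr1 showed the same order, with 4.44, 4.67 and 4.74 at 2 h, 1.82 to 2.06 in vehicle uteri and 0.78 and 0.92 at 24 h. Nr4a1, an orphan nuclear receptor, fell 22.8-fold (-4.51 ± 0.16) from 5.81, 6.17 and 6.13 to 1.42 and 1.63, close to the vehicle range of 1.45 to 1.72. Atf3, a stress-responsive leucine zipper factor, fell by 4.13 and ended below all 3 vehicle uteri, at -1.51 and -1.43 against -1.10 to -0.02.

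Myc, which drives growth and ribosome production, fell less and more unevenly: 3.08, 2.31 and 2.53 at 2 h against 1.14 and 1.88 at 24 h (-1.13 ± 0.32, adjusted p = 0.0327). Fosl1 and Klf2 were the members that did not pass the test, with differences of -1.28 (adjusted p = 0.104) and -0.14. The vehicle mean lay nearer the 24 h mean for 20 of the 22 members that fell. Without 2 h replicate 2, 21 members fell, and 22 fell in the 7-group fit without both 2 h arrays of raised pancreas markers.

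Arc and Plk2 were among the 10 largest falls on probes well above background in all 5 uteri, and both are also induced as immediate early genes in other tissues. Arc, best known from synapses, stood at 2.46, 3.08 and 3.38 at 2 h and at -3.82 and -3.54 at 24 h (-6.65 ± 0.29, adjusted p = 0.000516), and the vehicle uteri lay between, at -2.38 to -1.25. Plk2, a polo-like kinase, fell by 4.46 ± 0.25, from 4.15, 3.88 and 3.62 to -0.90 and -0.25. Csrnp3 fell by 4.54 ± 0.21, from 0.19, 0.01 and 0.62 to -4.37 and -4.17, under its vehicle range of -4.04 to -3.63.

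**Figure D2:**
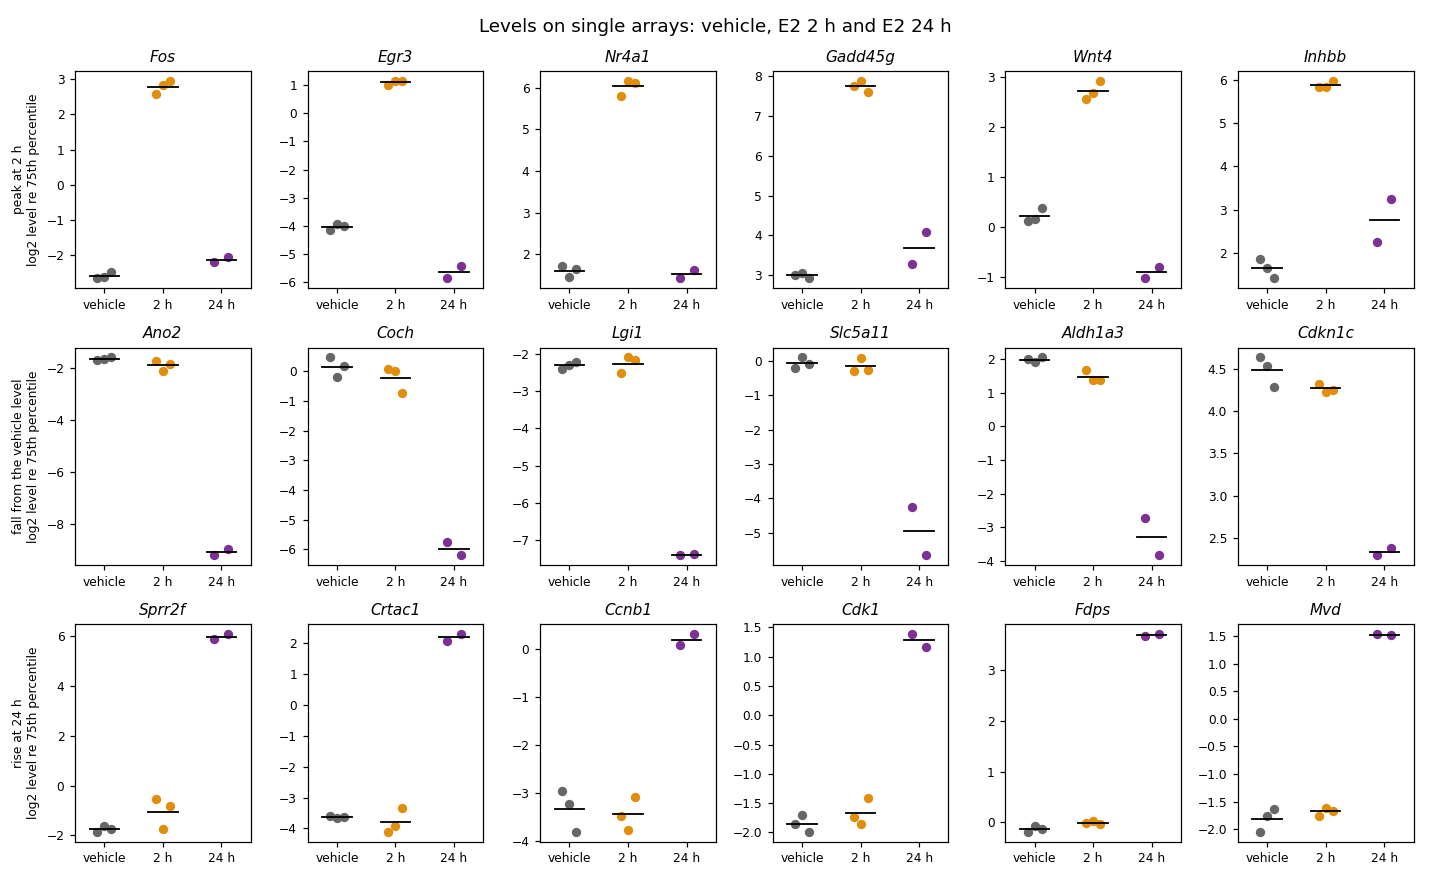
Level (log2 signal relative to the array's 75th percentile) of single probes in every vehicle, E2 2 h and E2 24 h uterus, one point an animal and a bar at the group mean; the 24 h points of Ano2 and Lgi1 were not well above background. Fos stands at 2.57 to 2.96 at 2 h and returns to -2.19 and -2.06, while Fdps stands at about the vehicle level at 2 h and at 3.67 and 3.71 at 24 h.

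Feedback regulators, which are induced by a signalling pathway and damp it, followed the early factors. Of 24 tested, 19 fell, 1 rose and the median difference was -1.49. Gadd45g, a growth arrest and stress protein, fell 16.7-fold (-4.06 ± 0.26), from 7.75, 7.89 and 7.61 to 3.28 and 4.09. Errfi1, an inhibitor of the epidermal growth factor receptor, fell 14.3-fold (-3.84 ± 0.15), from 5.12, 5.47 and 5.45 to 1.46 and 1.55. The cytokine signalling suppressors Socs1 and Socs3 fell by 3.29 and 2.99, and the phosphatase Dusp1 fell by 3.32. For 15 of the 19 the vehicle mean lay nearer the 24 h mean.

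Axin2, a feedback inhibitor and common readout of canonical Wnt signalling, passed below its starting level. It stood at 2.53, 2.39 and 2.27 at 2 h and at -0.46 and -0.67 at 24 h (-2.96 ± 0.14, adjusted p = 0.00052), against 0.94 to 1.33 in the vehicle uteri. Dusp14 was the one member that rose, by 1.24 ± 0.13, from -2.23, -2.35 and -2.39 to -0.95 and -1.22. The sprouty-related Spred1 fell on the probe taken for the list, while 2 of its probes rose and 1 fell. Differences of Dusp6, Tnfaip3, Spred2 and Rgs2 did not pass the test. Without 2 h replicate 2 the count was 20 lower and 1 higher, and 18 lower and 1 higher without both 2 h arrays of raised pancreas markers.

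Secreted ligands split. Of 30 growth factors and binding proteins, 18 fell and 5 rose (median -1.12). Ihh, the epithelial hedgehog ligand, stood at -0.45, -0.60 and -0.34 at 2 h and fell 18.8-fold (-4.23 ± 0.38) to -4.05 and -5.34, while the vehicle uteri read -3.08 to -2.77. Wnt4 fell 12.3-fold (-3.62 ± 0.16), from 2.54, 2.67 and 2.92 to -1.02 and -0.79, also below its vehicle range of 0.13 to 0.38. Ccn1, a matricellular protein, fell by 3.95 ± 0.13, from 3.83, 3.88 and 4.09 to 0.04 and -0.07. Inhbb, which encodes an activin and inhibin subunit, fell by 3.13 ± 0.30, from 5.82, 5.83 and 5.98 to 2.26 and 3.25, and both late levels stayed above the vehicle range of 1.41 to 1.87.

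Vegfa, the vascular endothelial growth factor that raises vessel permeability, fell by 2.54 ± 0.17, from 3.82, 3.84 and 4.11 to 1.21 and 1.57, around the vehicle level of 1.496 to 1.742. Igfbp1 was not well above background in either 24 h uterus and was at least 2.40-fold lower there. The growth factors Hbegf and Tgfa and the stress-induced cytokine Gdf15 fell by 2.52, 1.03 and 3.85. Igf1, a stromal growth factor that carries the E2 signal to the epithelium, rose by 0.86 ± 0.18, from 2.42, 2.31 and 2.19 to 2.93 and 3.41, on top of a vehicle level of 0.9936 to 1.197. Another Igf1 probe fell by 2.48. Igfbp5, which binds insulin-like growth factors, rose by 1.63 ± 0.19, from 2.12, 2.11 and 2.48 to 3.68 and 4.05. Wnt5a rose by 0.94 ± 0.27 (adjusted p = 0.0357), a call lost when any 1 of 2 h replicate 3, 24 h replicate 2 or 24 h replicate 3 was left out. Without both 2 h arrays of raised pancreas markers, 15 ligands fell and 2 rose.

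Several of the steepest falls started from a vehicle level that was already high. Coch, an extracellular matrix protein known from the inner ear, stood at 0.08, 0.01 and -0.73 at 2 h and at -5.76 and -6.19 at 24 h (-5.76 ± 0.30, adjusted p = 0.000552), while the vehicle uteri read -0.20 to 0.46. Aldh1a3, a retinoic acid synthesizing enzyme, fell by 4.74 ± 0.34, from 1.67, 1.36 and 1.38 to -2.72 and -3.82, against 1.90 to 2.05 in vehicle. Slc5a11, a sodium-coupled inositol transporter, fell by 4.80 ± 0.42, from -0.29, 0.09 and -0.27 to -4.26 and -5.65. In these genes the vehicle and 2 h levels lay together and the late levels lay apart.

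Ano2, a calcium-activated chloride channel, and Lgi1, a secreted leucine-rich repeat protein, were not well above background in either 24 h uterus, and they were at least 35.0-fold and 26.5-fold lower than at 2 h. Their vehicle levels of -1.69 to -1.58 and of -2.41 to -2.22 lay beside the 2 h levels of -2.09 to -1.70 and of -2.52 to -2.10. Kcne2, a potassium channel subunit, fell by 5.54 ± 0.42, from -1.26, -0.63 and -0.09 to -5.75 and -6.64. Ptf1a, a pancreas transcription factor, was also called lower and not well above background at 24 h. Its 2 h levels of -5.43, 0.77 and -4.13 were highest on the array with the highest pancreas markers, so no fold is given, and its call (adjusted p = 0.0461) was lost without 2 h replicate 3, without either 24 h replicate and with quantile normalization.

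In G1 control, cyclin E and E2F genes rose and several kinase inhibitors fell. Of 23 tested, 12 rose and 8 fell. Ccne1, the cyclin E that starts S phase with Cdk2, stood at -1.22, -1.28 and -0.97 at 2 h and at 1.33 and 1.31 at 24 h (2.48 ± 0.13, adjusted p = 0.00058), and the vehicle uteri read -1.72 to -1.21. E2f1, the factor that drives S phase genes, rose by 2.34 ± 0.16, from -3.36, -3.16 and -2.95 to -0.69 and -0.92. Cdk4 rose by 1.26 and Ccnd1, cyclin D1, by 0.65.

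Cdkn1c, the kinase inhibitor p57, stood at 4.32, 4.22 and 4.25 at 2 h, within or next to the vehicle range of 4.29 to 4.63, and fell by 1.92 ± 0.10 to 2.30 and 2.38. Cdkn1a, the inhibitor p21, had a different course: vehicle -1.90 to -1.80, 2 h 0.32, 0.53 and 0.98, and 24 h -0.87 and -0.9965 (-1.54 ± 0.22). Rb1, Rbl2, Cdkn1b, Ccng2, Ccnd2 and Cdk6 also fell, by 0.63 to 1.03. Other Cdk6 probes had differences of -0.36 and -0.28 that did not pass. The vehicle mean lay nearer the 2 h mean for 11 of the 12 that rose and for 7 of the 8 that fell.

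Every DNA replication gene rose: 35 of 35 tested, with a median of 1.44. Tk1, thymidine kinase, rose 11.2-fold (3.49 ± 0.23, adjusted p = 0.000748), from -1.57, -1.65 and -0.97 to 2.12 and 2.07. Mcm10 and Orc1, which act at replication origins, rose by 3.33 and 3.24, and the loading factor Cdc6 by 3.12. Mcm5, a helicase subunit, stood at 0.70, 0.95 and 1.09 at 2 h and at 3.36 and 3.28 at 24 h. Pcna, the sliding clamp, rose by 1.22 ± 0.12, from 3.38, 3.17 and 3.33 to 4.46 and 4.58. In all 35 the vehicle mean lay nearer the 2 h mean, the lowest rise was 0.47 (Orc6), and 34 passed without 2 h replicate 2.

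Genes of G2 and mitosis rose more: 28 of 30 rose and 2 fell, with a median of 2.67. Ccnb1, cyclin B1, stood at -3.47, -3.77 and -3.09 at 2 h and at 0.08 and 0.31 at 24 h, a 12.5-fold rise (3.64 ± 0.22, adjusted p = 0.000683), and the vehicle uteri read -3.81 to -2.95. Ccnb2 rose 8.57-fold (3.10 ± 0.19), from -0.06, -0.24 and 0.29 to 3.00 and 3.20. Cdk1, the kinase both cyclins bind, rose 7.71-fold (2.95 ± 0.17), from -1.73, -1.86 and -1.42 to 1.38 and 1.17. The phosphatase gene Cdc25c, the survivin gene Birc5 and the ubiquitin conjugating enzyme gene Ube2c rose by 3.50, 3.35 and 3.34. Mki67, which encodes the proliferation antigen Ki67, rose by 2.39 ± 0.20, from 0.79, 0.69 and 1.26 to 3.36 and 3.25.

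Only Mad2l1 and Pttg1 fell, while the spindle checkpoint genes Bub1 and Bub1b were among the 28 that rose. Mad2l1, of the spindle checkpoint, stood at 1.521, 1.499 and 1.809 at 2 h and at 0.72 and 0.96 at 24 h (-0.77 ± 0.15, adjusted p = 0.0107), both above the vehicle range of -1.76 to -1.53. Its call was lost without 24 h replicate 2 and without both 2 h arrays of raised pancreas markers. Pttg1, securin, fell by 0.40 (adjusted p = 0.0298), a call lost when any 1 array was left out. Across the list, 27 rose and 1 fell without 2 h replicate 2, and likewise without both 2 h arrays of raised pancreas markers.

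Every enzyme of cholesterol synthesis rose: 20 of 20, with a median of 1.85. Fdps, farnesyl diphosphate synthase, had the largest rise of the list (3.70 ± 0.10, adjusted p = 0.000468). Its levels were -0.01, 0.03 and -0.03 at 2 h, -0.19 to -0.07 in vehicle uteri and 3.67 and 3.71 at 24 h. Mvd, the decarboxylase that makes isopentenyl diphosphate, rose 9.19-fold (3.20 ± 0.10), from -1.75, -1.61 and -1.67 to 1.53 and 1.52. Sqle, squalene epoxidase, rose by 2.99.

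Acat2, a thiolase at the start of the pathway, had the lowest rise of the list, 0.41 ± 0.12 (adjusted p = 0.036). The probe named Idi1, which rose by 3.08, has its file position on chromosome 2 while the gene lies on chromosome 13, so its target is uncertain. Without 2 h replicate 2, 19 of the 20 rose, and 19 rose without both 2 h arrays of raised pancreas markers.

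Machinery of protein production and turnover rose by smaller amounts and widely. In the proteasome all 25 subunits tested rose, with a median of 1.02 and a range of 0.58 to 1.64. Psmd14, the deubiquitinating subunit, stood at 2.35, 2.31 and 2.38 at 2 h and at 3.90 and 4.08 at 24 h (1.64 ± 0.11, adjusted p = 0.000752). Of 21 aminoacyl-tRNA synthetases, which charge tRNAs, 18 rose and none fell (median 1.01), although 5 of the 21 genes have probes called in both directions. Vars rose by 1.54 ± 0.16, from 0.26, 0.65 and 0.68 to 2.12 and 2.02. For Aars, which rose by 1.84 on the probe taken, 2 of 4 probes were called lower. The others are Farsa, Hars, Iars and Qars, and in the proteasome Psmc2 has probes called both ways.

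Ribosome biogenesis was mixed, with 17 of 30 rising, 1 falling and a median of 0.55. Ncl, nucleolin, rose by 0.78 ± 0.11, from 4.99, 5.12 and 5.10 to 5.78 and 5.92, and Rrp12 rose by 1.47 ± 0.24. Nop56, Nop58, Gnl3 and Ddx21, nucleolar proteins of the same list, had differences of 0.08, 0.25, 0.10 and 0.22 that did not pass the test. Ppan fell by 0.54 (adjusted p = 0.0288), a call lost when 2 h replicate 1, 2 h replicate 2, 2 h replicate 3 or 24 h replicate 2 was left out.

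Chaperones and translocation proteins of the endoplasmic reticulum rose in 18 of 25 cases and fell in 2 (median 1.11). Calr, calreticulin, rose by 1.92 ± 0.11, from 2.78, 2.89 and 2.93 to 4.76 and 4.82, and Hspa5, the chaperone BiP, by 0.87 ± 0.16. The members that fell belong to the stress arm: Ddit3, which encodes CHOP, stood at 0.02, 0.11 and 0.07 at 2 h and at -0.54 and -0.90 at 24 h (-0.78 ± 0.14), and Herpud1 fell by 1.06 ± 0.22, a call lost without 24 h replicate 3. Pdia6, Hyou1 and Sec61a1 rose on the probe taken and have another probe called lower. Xbp1, a driver of secretory expansion, read 1.68, 2.19 and 1.85 against 1.98 and 2.10 (0.13, adjusted p = 0.576).

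In oxidative phosphorylation 24 of 25 genes rose (median 0.97). Cycs, cytochrome c, stood at 3.23, 3.38 and 3.25 at 2 h and at 4.77 and 4.84 at 24 h (1.52 ± 0.11, adjusted p = 0.000842). Cox4i1 was the member that did not pass, at 0.27. A second probe of Cox5a, which rose by 1.48 on the probe taken, fell by 1.56, and Sdha also has probes called both ways. Glycolysis held 11 genes that rose and 2 that fell among 20: Pgk1, Eno1 and Ldha rose by 1.90, 1.85 and 1.54, while the pyruvate dehydrogenase kinase Pdk4 fell 14.6-fold (-3.87 ± 0.27), from 2.00, 1.86 and 1.98 to -1.47 and -2.37, below the vehicle range of 0.04 to 0.28. Pfkfb3, which makes an activator of glycolysis, fell by 1.75.

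The probe named Gapdh has a file position on another chromosome than the gene. With centring on the spike-in probes, no member of the proteasome, oxidative phosphorylation or ribosome biogenesis lists was called, although their medians were 1.12, 1.07 and 0.65, while 26 G2/M genes, 16 DNA replication genes and 12 cholesterol genes were still called higher. On the shared slide, 24 h replicate 2 minus 2 h replicate 1 gave medians of 0.92, 0.93 and 0.62 for the former lists and of 2.71, 1.59 and 1.75 for the latter.

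Luminal secretory and barrier genes held the largest rises of the array. Of 29 tested, 17 rose and 4 fell, with a median of 2.63. The small proline-rich proteins, cross-linked into the cornified envelope of barrier epithelia, led. Sprr2f (chr3:92472374-92472433, mm7) stood at -0.56, -1.75 and -0.84 at 2 h and at 5.89 and 6.09 at 24 h, a 131-fold rise (7.04 ± 0.36, adjusted p = 0.000552). Its 2 h levels lay within or above the vehicle range of -1.87 to -1.64. Sprr1a (chr3:92590070-92590129, mm7) rose 73.5-fold (6.20 ± 0.35), from -3.76, -4.40 and -3.63 to 1.84 and 2.70. Sprr2d, well above background on only 1 of the 2 h arrays, read -7.35, -7.75 and -6.59 at 2 h and -0.14 and 0.89 at 24 h, and no fold is given because the signals of the other 2 h arrays were not measured above background. These genes are near-identical neighbours, so their probes may read one another's transcripts. The probes of Sprr2a1 disagree: one rose by 6.45 ± 0.22 and the other had a difference of -0.15.

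Lcn2, a siderophore-binding lipocalin, rose 24.3-fold (4.60 ± 0.14), from -2.42, -2.52 and -2.70 to 2.17 and 1.94. Ltf, lactoferrin, an iron-binding secretory protein and classic E2 marker of mouse uterus, rose by 3.44 ± 0.24, from 1.81, 1.06 and 1.52 to 4.98 and 4.84, and its 2 h levels lay below the vehicle range of 2.01 to 2.35. The apical mucin Muc1 rose by 3.30 ± 0.50, and Muc4 by 3.20 to 4.89 over its probes, 4.57 on the brightest and most on the probe at chr16:32453283-32453342. Complement C3, another secretory product, read 5.84, 5.20 and 5.97 at 2 h and 6.30 and 6.17 at 24 h and did not pass (adjusted p = 0.116).

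Members of this list that fell stood above the vehicle range at both times. The hair keratin gene Krt86 stood at 1.86, 1.97 and 2.49 at 2 h and at -0.66 and -0.57 at 24 h (-2.72 ± 0.21), both far above the vehicle levels of -6.34, -5.67 and -5.14. Krt87 and Krt85 fell by 2.70 and 1.82, and the call of Krt85 was lost with spike-in centring and in the 7-group fit, both with all arrays (adjusted p = 0.055, limma) and without both 2 h arrays of raised pancreas markers (0.312). Aqp5, a water channel, fell by 1.21 ± 0.16, from 3.14, 3.27 and 3.57 to 2.13 and 2.10, against -0.14 to 0.29 in vehicle. Klk1, a kallikrein that pancreas also expresses, read -1.49, 5.67 and 0.39 at 2 h, in the order of the pancreas markers, and -0.37 and 0.07 at 24 h, and did not pass. Counts were 17 higher and 4 lower without 2 h replicate 2, and 17 higher and 2 lower without both arrays.

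Outside the lists, the 10 largest rises on probes well above background in all 5 uteri also held Crtac1, Uox, Serpinb5, Aoc1, Crabp1 and Krt12. Uox, urate oxidase (chr3:146529799-146529858), rose by 5.85 ± 0.31, from -5.05, -5.77 and -5.08 to 0.23 and 0.87, and a second Uox probe was at least 42.9-fold higher at 24 h. Crtac1, a cartilage matrix protein (chr19:42177512-42178013), rose by 5.98 ± 0.25, and its second probe was at least 38.2-fold higher. Aoc1, a histamine-degrading diamine oxidase (chr6:48869166-48869225), rose by 5.16 ± 0.30, from -3.42, -4.33 and -3.96 to 1.46 and 1.04, and its 2 h levels already lay above the vehicle range of -5.51 to -5.27. Serpinb5, maspin, and the retinoic acid binding protein Crabp1 rose by 5.32 and 4.99.

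Among genes with no 2 h array well above background, Fam3b, a secreted cytokine-like protein, was at least 98.9-fold higher at 24 h, where it read -0.41 and -0.10. Gsdmc2, a gasdermin, was at least 24.8-fold higher, at -2.12 and -2.39. Krt6a was at least 25.95-fold higher on the group mean, but its late uteri read -4.58 and 0.20, and its call (adjusted p = 0.0185) was lost without 2 h replicate 1 or 2 h replicate 3. In the whole comparison, 196 probes called higher had no 2 h array well above background and 379 called lower had no 24 h array well above it.

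Extracellular matrix genes rose in 19 of 31 cases and fell in 5 (median 1.06). Collagens were among those that rose: Col1a1 rose 4.12-fold (2.04 ± 0.27), from 4.89, 4.08 and 4.17 to 6.32 and 6.53. Col6a2 rose by 2.41 ± 0.17 on the probe taken, while another of its probes had a difference of 0.33 that did not pass. Thbs1, the antiangiogenic thrombospondin, fell by 2.26 ± 0.32, and Timp3, a metalloproteinase inhibitor, fell by 1.81 ± 0.15, from 4.98, 5.15 and 5.23 to 3.47 and 3.15. Dcn fell by 0.87 on the probe taken, while another of its probes was called higher. Without both 2 h arrays of raised pancreas markers, 15 rose and 5 fell.

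Patterning and hedgehog genes fell more often than they rose, 11 against 4 of 24 (median -0.40). These are 45.8% and 16.7%, beside 27.1% and 23.8% of all probes. Hhip, a hedgehog-binding inhibitor, was the large exception, rising by 2.91 ± 0.21 from -6.76, -6.15 and -6.38 to -3.62 and -3.41. The hedgehog receptor Ptch1 fell by 1.48 ± 0.25, from -1.72, -2.21 and -2.43 to -3.39 and -3.80, and Lgr5, a Wnt-amplifying receptor of epithelial progenitors, fell by 1.87 ± 0.23, from -0.65, -0.15 and -0.22 to -1.95 and -2.47. For both genes vehicle lay above every E2 uterus, at -1.42 to -1.24 and at 0.02 to 0.09. Hoxa10 read 2.46, 1.99 and 2.10 against 2.35 and 2.57 and did not pass. Rises of Hoxa11 (0.68) and Hoxa9 (0.54) passed in the 5-array fit, and both calls were lost without 2 h replicate 2, without 2 h replicate 3 and without 24 h replicate 3, and that of Hoxa11 also without 24 h replicate 2. Without 2 h replicate 2, 1 of the 24 rose and 11 fell.

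Of the vascular genes, 10 of 24 fell (41.7%) and 2 rose (8.33%), beside 27.1% and 23.8% of all probes. Their median was -0.40. Angpt2, which destabilizes vessels, fell by 1.98 ± 0.10, from 1.40, 1.32 and 1.34 to -0.67 and -0.59, below the vehicle range of 0.44 to 0.60. Plvap, a component of endothelial fenestrae, rose by 1.94 ± 0.10, from -0.25, -0.14 and -0.16 to 1.79 and 1.72. The receptor genes Kdr, Flt1 and Tek had differences of -0.28, 0.26 and -0.05 that did not pass. Of 10 endothelial markers 5 (50%) fell (Cldn5, Vwf, Cdh5, Esam and Robo4) and none rose. Each of the 5 also stands in the vascular list, so they add no separate count. The summed endothelial level was 35.56 to 38.02 at 2 h and 20.37 to 23.42 at 24 h. In bulk RNA, fewer cells of a type and less RNA per cell cannot be told apart.

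Chemokines and cytokines moved both ways, 10 higher (43.5%) and 4 lower (17.4%) of 23, beside 23.8% and 27.1% of all probes. Their median of 0.18 became -0.20 without both 2 h arrays of raised pancreas markers. Ccl20, which attracts lymphocytes and dendritic cells, was not well above background at 2 h and was at least 7.41-fold higher at 24 h, at -4.72 and -3.27. Ccl7, a monocyte attractant, rose by 2.29 ± 0.18, from -3.03, -3.02 and -2.88 to -0.94 and -0.43. Cxcl5, which attracts neutrophils, read -6.20, -9.18 and -9.11 at 2 h, with 1 array well above background, and -3.39 and -1.02 at 24 h. It was called higher (adjusted p = 0.0102), no fold is given because the signals of the other 2 h arrays were not measured above background, and its call was lost without 24 h replicate 3. Cxcl14 fell by 1.64 ± 0.11. Macrophage markers summed to 103.2 to 175.8 at 2 h and 66.44 to 69.45 at 24 h. Of these sums Lyz2, the brightest member in every E2 uterus, made the largest part. The list medians overlapped, at 0.4091 to 1.174 at 2 h and 0.7548 to 0.8804 at 24 h. Of 11 members 1 was higher and 3 lower (27.3%, beside 27.1% of all probes).

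Interferon response genes rose in 18 of 25 cases, and none fell (median 0.87). Oas1a, an antiviral RNA sensor, rose by 1.72 ± 0.19, from 0.16, -0.17 and 0.37 to 1.97 and 1.71, with vehicle uteri at -0.08 to 0.50. Ifit3 and Oas2 rose by 1.61 and 1.42. Mx1 rose by 1.55 ± 0.34, a call lost without 24 h replicate 2 or 24 h replicate 3, and the probe named Isg15, which rose by 1.55, has a file position on another chromosome than the gene. Irf1, B2m and Ifit2 had differences of -0.22, -0.10 and -0.04. Leaving out 2 h replicate 2 gave 14 that rose.

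Clock genes fell in 14 of 18 cases, and none rose (median -1.06). Per1 and Per2, repressors of the circadian feedback loop, fell by 1.89 ± 0.10 and 2.02 ± 0.11, Per1 from 1.99, 1.91 and 1.87 to 0.07 and -0.01 and Per2 from 1.10, 1.23 and 1.12 to -0.79 and -0.96. Another Per2 probe had a difference of -0.57 that did not pass. Nfil3 fell by 2.56 ± 0.13 to about its vehicle level, whereas for 12 of the 14 the vehicle mean lay nearer the 2 h mean. Clock itself read 1.01, 1.18 and 1.01 against 0.81 and 1.09 and did not pass. Collections 2 h and 24 h after a dose can differ in clock time, which the labels do not give, and its part in these falls was not tested.

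Steroid receptors and their coregulators fell in 10 of 18 cases and rose in 1 (median -0.43). Pgr, the progesterone receptor and an E2 target, stood at -0.24, -0.17 and -0.07 at 2 h and at -1.10 and -0.82 at 24 h (-0.80 ± 0.13), both above the vehicle range of -2.05 to -1.86. Greb1, an E2-induced cofactor, had the same order with 1.01, 1.23 and 1.46, then -0.42 and -0.66 (-1.78 ± 0.17), and vehicle at -1.34 to -1.12. The corepressor Nrip1 fell by 2.11 ± 0.17, to 1.43 and 1.74, around its vehicle range of 1.45 to 1.61. Esr1, which encodes estrogen receptor alpha, read 3.56, 3.00 and 3.27 at 2 h and 2.75 and 3.02 at 24 h and did not pass (-0.39, adjusted p = 0.153). Leaving out 2 h replicate 2 gave 7 lower and 1 higher.

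Without 2 h replicate 2, the counts not yet given were 12 higher and 5 lower (from 8 lower) for G1 control, 18 and 0 for ribosome biogenesis, 19 and 0 for tRNA synthetases, 21 and 2 for the endoplasmic reticulum, 24 and 0 for the proteasome and for oxidative phosphorylation, 10 and 3 for glycolysis, 3 and 18 for ligands (from 5 higher), 19 and 5 for matrix, 2 and 11 for vascular genes, 9 and 5 for chemokines, and 0 and 14 for the clock. In the 7-group fit without both 2 h arrays of raised pancreas markers they were 12 and 8 for G1 control, 35 and 0 for DNA replication, 20 and 1 for ribosome biogenesis, 20 and 0 for tRNA synthetases, 19 and 2 for the endoplasmic reticulum, 25 and 0 for the proteasome and 24 and 0 for oxidative phosphorylation. In that fit they were 11 and 3 for glycolysis, 1 and 10 for patterning, 2 and 12 for vascular genes, 7 and 3 for chemokines, 14 and 0 for interferon genes, 1 and 9 for steroid receptors, and 0 and 12 for the clock.

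Markers of the cell types of the organ moved as well, and of all probes 23.8% were called higher and 27.1% lower. Among them Acta2 of smooth muscle and Odf2 of sperm have probes called both ways. Epithelial markers rose in 8 of 12 cases (66.7%) and none fell. Their summed level was 105.2 to 113.4 at 2 h and 215.1 to 243.2 at 24 h. Epcam and Cdh1 rose by 1.06 and 1.01, and the keratins Krt8 and Krt19 by 1.51 and 1.70. Smooth muscle markers rose in 7 of 11 cases (63.6%), with sums of 379.8 to 458.7 and 682.6 to 725.9, led by Actg2 at 1.79. Stromal markers rose in 5 of 11 cases (45.5%) and fell in 3 (27.3%), and their sums overlapped at 291.6 to 356.8 and 350 to 365. All 12 epithelial, 11 smooth muscle and 11 stromal markers were well above background in all 5 uteri, so the defining markers of uterus were present.

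Lymphocyte markers fell in 6 of 12 cases (50%) and rose in 1 (8.33%), beside 27.1% and 23.8% of all probes. Their sums overlapped, at 1.911 to 2.391 and 1.943 to 2.352. Adipose markers fell in 2 of 10 cases (20%, under the 27.1% of all probes), or in 9 without 2 h replicate 2. Their sums were 25.72 to 50.22 and 18.27 to 23.25. Defining markers that were not well above background in any of the 5 uteri were Elane and Epx for granulocytes, Ucp1 for brown fat, Apoa1, Fgb and Fgg for liver, Cyp19a1 and Lhcgr for ovary, and Epb42 for red cells. The part of cell composition in the gene lists above was not tested.

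**Figure D3:**
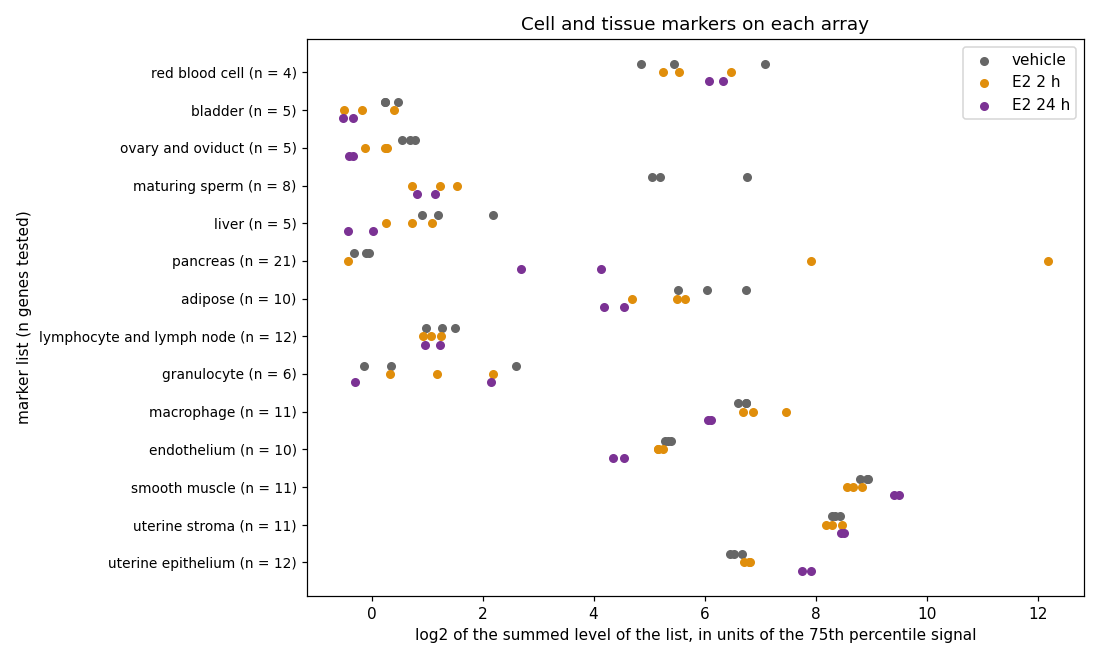
Summed level of each marker list (log2 of the sum of signals relative to the array's 75th percentile, horizontal axis) in every vehicle, E2 2 h and E2 24 h uterus, one point an animal. Before the log, pancreas markers spread from 0.7448 to 4676 within the 2 h group, and epithelial markers stand at 105.2 to 113.4 at 2 h and 215.1 to 243.2 at 24 h.

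The same interval was then set against the interval under both xenoestrogens of the series. Bisphenol A (BPA), a monomer of polycarbonate plastic, and HPTE, a metabolite of the pesticide methoxychlor, were given at 750 µg a mouse in sesame oil, 3 uteri at each time, so their dose by mass was far above that of E2 and the tests compare these doses. In a fit over all 7 groups, the E2 change from 2 h to 24 h differed from the BPA change on 16535 of 32456 probes (50.9%), E2 being higher on 7166 and lower on 9369. It differed from the HPTE change on 14953 (46.1%), higher on 6731 and lower on 8222. Both splits turn with the scaling: with none, 9971 were higher and 3885 lower than BPA and 10932 higher and 2658 lower than HPTE, and with spike-in centring 3842 and 2158, and 6101 and 952. These tests share the E2 arrays, so they are not independent of each other.

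The E2 change was above the BPA change for all 35 DNA replication genes and above the HPTE change for 34. Median changes of this list were 1.44 under E2, 0.14 under BPA and 0.38 under HPTE. In the proteasome, where BPA and HPTE medians were -0.10 and 0.05, all 25 genes differed from both. Cholesterol synthesis had 19 of 20 genes above BPA and 15 above HPTE, and Fdps changed by 3.70 under E2, 0.22 under BPA and 1.39 under HPTE. Ribosome biogenesis, at -0.89 under BPA and -0.61 under HPTE, had 29 of 30 genes above BPA and 27 above HPTE.

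For G2/M genes the counts were unlike. Against BPA, whose median was 1.25, 26 of 30 E2 changes were higher and 2 lower, but against HPTE, whose median was 2.19, 6 were higher and 2 lower. Ccnb2 changed by 3.10 under E2, 1.82 under BPA and 3.11 under HPTE, and the E2 minus HPTE difference was -0.01 ± 0.33 (SE). Whether the BPA and HPTE changes differ from each other was not tested.

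Immediate early factors had medians of -2.44 (E2), -2.39 (BPA) and -2.53 (HPTE). There were 9 E2 changes lower and 5 higher than BPA among 24 and 7 lower and 5 higher than HPTE. Fos fell by 4.91 under E2, 4.55 under BPA and 4.83 under HPTE, and the E2 differences were -0.37 ± 0.42 and -0.08 ± 0.42, which did not pass. Jun and Egr1 fell further under E2, with E2 minus BPA of -1.90 and -1.25 and E2 minus HPTE of -1.58 and -1.15. Some genes turned: Lgr5 rose by 1.58 under BPA and 0.97 under HPTE and fell by 1.87 under E2, and Ptch1 rose by 1.73 and 1.43 and fell by 1.48. Sprr2f changed by 7.04 under E2, -0.32 under BPA and 1.88 under HPTE, an E2 excess of 7.36 ± 0.66 and 5.16 ± 0.66.

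The study itself followed 22 transcripts as early, late or other responses, and their direction here is not independent evidence. Of its 12 early transcripts 11 fell (median -3.37), and of its 5 late transcripts all rose. Ppp2r2c, a phosphatase subunit, did not fall with the other early ones: it read 0.41, 0.20 and 0.51 at 2 h and 0.43 and 1.14 at 24 h (0.41, adjusted p = 0.198; 0.76 and called higher, adjusted p = 0.0361, without 24 h replicate 2), above the vehicle range of -1.76 to -1.19 in every E2 uterus. Under BPA and HPTE it fell by 3.74 and 3.75, so the E2 change exceeded both by 4.15 and 4.16. Stat5a and Sox8 fell by 0.8147 and 1.497 under E2, and Stat5a stayed above its vehicle range of 0.13 to 0.21 at 0.77 and 0.92. Among 5 further transcripts, Per1 and Tnxb fell, Mvp rose by 0.90, and Axin1 and Gna12 had differences of -0.05 and 0.07.

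**Figure D4:**
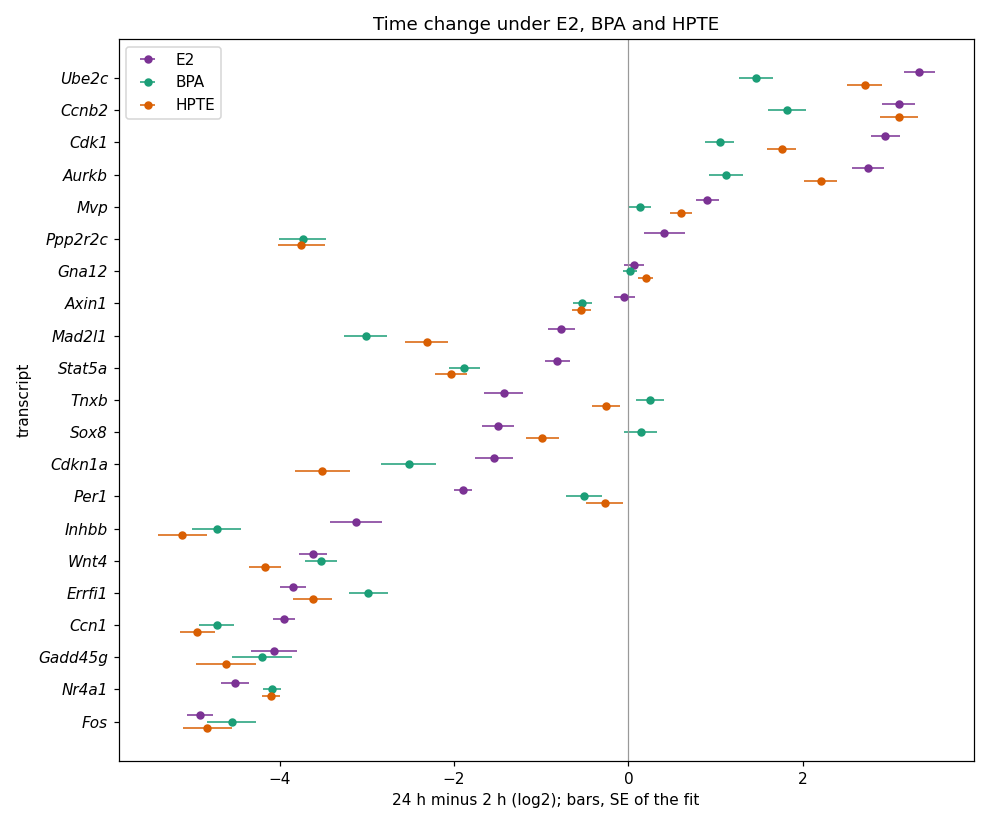
Change from 2 h to 24 h (log2, with SE) of 21 transcripts the study followed, under E2 (5-array fit), BPA and HPTE (7-group fit). Ppp2r2c falls by 3.74 and 3.75 under BPA and HPTE and stands at 0.41 under E2, and Cdk1 rises by 2.95 under E2 against 1.05 and 1.76.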

How the data were processed

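The deposited scanner files hold a processed intensity per spot, background-subtracted by the authors with Agilent Feature Extraction 9.5 (per the submitters' processing notes) and not scaled between arrays. The deposited series matrix held the same values and was not used further. Deposited flags (type other, per the file headers) mark control spots and spots well above background, saturated or outlying. Each array has 45018 spots, 1639 of them controls. Outlying spots (53 to 134 per E2 array) were left out and spots of a probe averaged. The probes well above background, 74.28% to 75.78% per E2 array, set the precision, with the small number of arrays.

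Intensity was log2 transformed and centred on each array's 75th percentile (1390.2 to 2147.5). Groups came from the labels. limma 3.58.1 (R 4.3.3, lmFit and eBayes) was fitted to the 5 E2 arrays, and, for the differences from BPA and HPTE, to all 7 groups. A probe lacking 1 value was fitted on 4 (17 probes). The script was tested on simulated data. Of 41174 probes, 23082 were named by accession, 6582 by symbol and 3073 by synonym from a RefSeq gene table, and 8437 kept the file's name. Probe positions are on mm7. A gene is taken as its tested probe with the highest mean, and list genes with probes called both ways are named. Named genes are the study's transcripts, the 10 largest rises and falls measured on all 5 arrays, the 5 largest bounds each way, and the 3 largest rises and falls per list. Other list members, and single differences from BPA and HPTE beyond the study's transcripts, are examples picked with values known. A few genes are not reported here. Members, lists and motifs were chosen with earlier results of these data known.

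Alternatives were other scalings, background corrections, filters, blocks, error models and leaving out arrays. Replicate numbers were not taken as pairs, since the labels do not call for it. Deviations of same-numbered arrays correlated at 0.02 and 0.17, and those of 2 h replicate 1 with the 24 h arrays at 0.09 and -0.09. With 2 arrays at 24 h, whose deviations mirror each other, these values cannot decide whether the samples are paired. Slide 2 holds both times (2 h replicate 1, 24 h replicate 2). The study's methods describe two-channel arrays for E2, BPA and HPTE, while these are single-channel.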

Additional observations from a re-analysis of the deposited data

Results flagged for a closer look

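Changes between 2 h and 24 h that differed between E2 and another compound were listed by the test of the difference itself (limma over all 7 groups, Benjamini-Hochberg adjusted p under 0.05). Against BPA, 16535 probes differed. Among the transcripts the study followed, the E2 minus BPA difference of the changes (log2) was positive for Stat5a 1.07, Inhbb 1.6, Mad2l1 2.24, Ppp2r2c 4.15, Ccn1 0.774, Ube2c 1.87, Ccnb2 1.28, Cdk1 1.9, Aurkb 1.63, Axin1 0.482 and Mvp 0.773, and negative for Errfi1 -0.86, Sox8 -1.64, Nr4a1 -0.431, Per1 -1.38 and Tnxb -1.68. The calls of Nr4a1, Errfi1, Ccn1 and Axin1 were each lost when some single E2 array was left out, among them 24 h replicate 2 in each case, and that of Inhbb without 24 h replicate 3. With spike-in centring those of Stat5a, Sox8, Per1, Mvp, Nr4a1, Errfi1, Ccn1 and Axin1 were lost.

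Against HPTE, 14953 probes differed. The E2 minus HPTE difference was positive for Stat5a 1.22, Inhbb 1.99, Mad2l1 1.54, Ppp2r2c 4.16, Cdkn1a 1.97, Ccn1 0.999, Cdk1 1.19 and Axin1 0.494, and negative for Nr4a1 -0.419, Per1 -1.62 and Tnxb -1.17. The call of Nr4a1 was lost without 2 h replicate 2, 2 h replicate 3 or 24 h replicate 2, and that of Axin1 without 2 h replicate 1 or 24 h replicate 2. With spike-in centring the calls of Nr4a1, Axin1, Per1 and Tnxb were lost, those of Nr4a1 and Tnxb also with no scaling. Doses by mass differ between the compounds, and their part in these differences was not tested. Groups of 2 or 3 E2 arrays are too small for a search for outlying samples.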

How the results depend on the processing

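Of 128 called probes picked by the naming rule (no tally was made for other genes the text names), 78 kept their call in every test run, 30 lost it only with spike-in centring (8 probes), 20 lost it in another setting and none reversed. The share of calls higher at 24 h, 46.79%, was 49.7% with quantile normalization, 50.4% with normexp and quantile, 66.4% with no scaling, 55% with spike-in centring, 51% among probes of signal above 100, 48% with the slide as a fixed block, 47.7% with an intensity trend and 48.2% in the 7-group fit without the 2 h arrays of raised pancreas markers, which was chosen after seeing the data. Calls numbered 6898 (4580 higher, 2318 lower) with no scaling, 1893 (1042 and 851) with spike-in centring, and 6371 (2881 and 3490) when at least 2-fold. List genes called fell from 421 to 141 with spike-in centring. Differences from BPA numbered 6000 (3842 higher, 2158 lower) with spike-in centring, and 3885 were lower with no scaling. Differences from HPTE numbered 7053 with spike-in centring, 952 of them lower, and 10932 higher and 2658 lower with no scaling. The E2 minus BPA difference of Nr4a1 became 0.00108 with no scaling, and E2 minus HPTE became 0.09455 with no scaling and 0.2329 with spike-in centring. Leaving out 1 array gave 10742 to 13901 calls (4977 to 6601 higher, 5765 to 7391 lower), 361 to 406 list genes, a share of 46.3% to 47.6%, 14205 to 16036 differences from BPA (6125 to 6959 higher, 8080 to 9077 lower) and 12225 to 14393 from HPTE (5556 to 6544 higher, 6669 to 7874 lower). A replicate block, which the labels do not call for, gave 13594 calls (6364 higher, 7230 lower) and 398 list genes. Signals not well above background give only bounds, and 2 animals at 24 h limit every spread. The cause of these shifts was not tested.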
